A study of Zea mays with 24 samples.

Results

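The genes described here are the 100 whose transcript level stood highest at mid-leaf segment +4 of the maize leaf, relative to 3 other segments of the same leaf. For every gene the mean of the 2 group values was taken in each segment, genes with a mean of at least 10 FPKM at +4 were ranked by the log2 ratio of the +4 mean to the largest of the other means (1 FPKM added to each), and the first 100 were kept. FPKM counts sequenced fragments per length of transcript, scaled to the size of the library. The tables list 39634 genes. Of these, 39631 had a usable level in every segment, 7572 reached 10 FPKM at +4 and could be ranked, and 587 of the ranked genes had their highest mean at +4.

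The material was leaf tissue of 9-day seedlings of the maize strain W22, of the genotype dct2-1 or wildtype, with 3 libraries for each genotype and segment and 15 plants pooled for each library. The allele dct2-1 belongs to a dicarboxylate transporter gene (pDCT2), and the labels name no second allele and do not say whether plants were homozygous. Segments are named by their position relative to the ligule of leaf 2, the hinge between blade and sheath: -4 is the base of the blade and does not photosynthesise, -1 is the zone where tissue turns from importing to exporting sugar, +4 is lit and photosynthesising mid-leaf, and +10 is the tip. The growth chamber, the same for both genotypes, ran at 28 degrees C and 40% humidity with 16 h light periods, and its supplemental light was set to 500 umol per m2 per s. For each segment the authors' deposited table holds 1 pooled level for a group named q2 and 1 for a group named q1, and the labels do not say which genotype either name stands for. A change is therefore given as q2 over q1, and setting segments beside each other assumes that q2 is the same genotype in every table.

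A grass leaf grows from its base, so the segments form a series of tissue ages. Cells divide and expand near the base, build chloroplasts and secondary walls in the transition zone, carry the highest photosynthetic load in the lit blade and age toward the tip. In C4 species such as maize, the blade divides carbon fixation between mesophyll and bundle sheath cells, and transporters of the chloroplast envelope move organic acids such as malate and oxaloacetate between compartments. A gene that peaks in the mid-blade can serve photosynthesis itself, the handling of its products, water and ion transport, or the wall of cells that have just stopped growing.

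Facts of the whole series set the frame. The pDCT2 gene (GRMZM2G086258) had 7.84, 12.5, 8.91 and 9.50 FPKM in q2 at segments -4, -1, +4 and +10, against 37.8, 657, 633 and 310.4 FPKM in q1, and the authors' deposited table called it lower in q2 in each of the 4 segments. Among leaf markers, the light-harvesting gene lhcb3, which is no member, had 930.2, 4509, 452 and 219.97 FPKM in q2 from base to tip, against 723, 6817, 6364 and 1651 FPKM in q1. The groups were thus far apart in lhcb3 from +4 on, and its part in the results was not tested. Other leaf markers did not all move this way at +4. Also lower in q2 was the light-harvesting gene cab-m1, with 553 FPKM in q2 and 7679 FPKM in q1. The bundle sheath rbcs genes GRMZM2G098520 (2301 and 4326 FPKM) and GRMZM2G113033 (2152 and 4212 FPKM) stood lower too. So did the mesophyll gene mdh6 (1315 and 2145 FPKM) and, slightly, the phloem gene sut1 (278 and 295 FPKM). The bundle sheath genes me3 (3729 FPKM in q2 and 3258 FPKM in q1) and rca1 (1726 and 1566 FPKM) stood somewhat higher in q2. Of the mesophyll genes, so did GRMZM2G107196 (38.7 and 32.7 FPKM) and GRMZM2G097821 (18.7 and 17.9 FPKM), both listed as pdk1, and GRMZM5G899080 (2.47 and 2.14 FPKM), listed as pep1. The meristem gene kn1 did not exceed 0.0553 FPKM in any column. Read depth per library is unknown. The FPKM sums over usable genes were 619748 in q2 and 833526 in q1 at +4, and each table was normalised apart, so levels set across segments carry that limit. These are bulk samples, in which fewer cells of a type and less RNA per cell cannot be told apart.

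In the levels as deposited, the mid-leaf peak was shallow for most members. The ranking score had a median of 0.54 on the log2 scale, a peak 1.45-fold above the next segment, and ran from 0.39 (1.31-fold) to 1.92 (3.78-fold). A peak of at least 2-fold was held by 9 members. The ranking chose these values, so they are a description and support nothing by themselves. Among all 7572 ranked genes the highest mean lay at -4 for 2985, at -1 for 1584 and at +10 for 2416, against 587 at +4. Just inside the limit, GRMZM2G467576, GRMZM2G102838 and GAD (GRMZM2G017110) scored 0.40, 0.40 and 0.39. Just outside it, GRMZM2G007928, GRMZM2G444073 and GRMZM2G177895 all scored 0.39.

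Members were lower at the base than farther up the blade in the median, and the median rose to +4 and fell toward the tip in both groups. The mean level at -4 was under 1 FPKM for 29 of the 100 members. The segment closest to +4 in level was the tip for 58 members, the transition zone for 39 and the base for 3. Levels at +4 spanned the range from 10.3 to 6054 FPKM (mean of both groups), with 61 members between 10 and 100 FPKM, 29 between 100 and 1000 FPKM and 10 at 1000 FPKM or more. The median member had 5.12, 22.3, 38.2 and 24.8 FPKM in q2 over the 4 segments from base to tip, against 4.37, 28.5, 67.8 and 35.4 FPKM in q1.

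**Figure D1:**
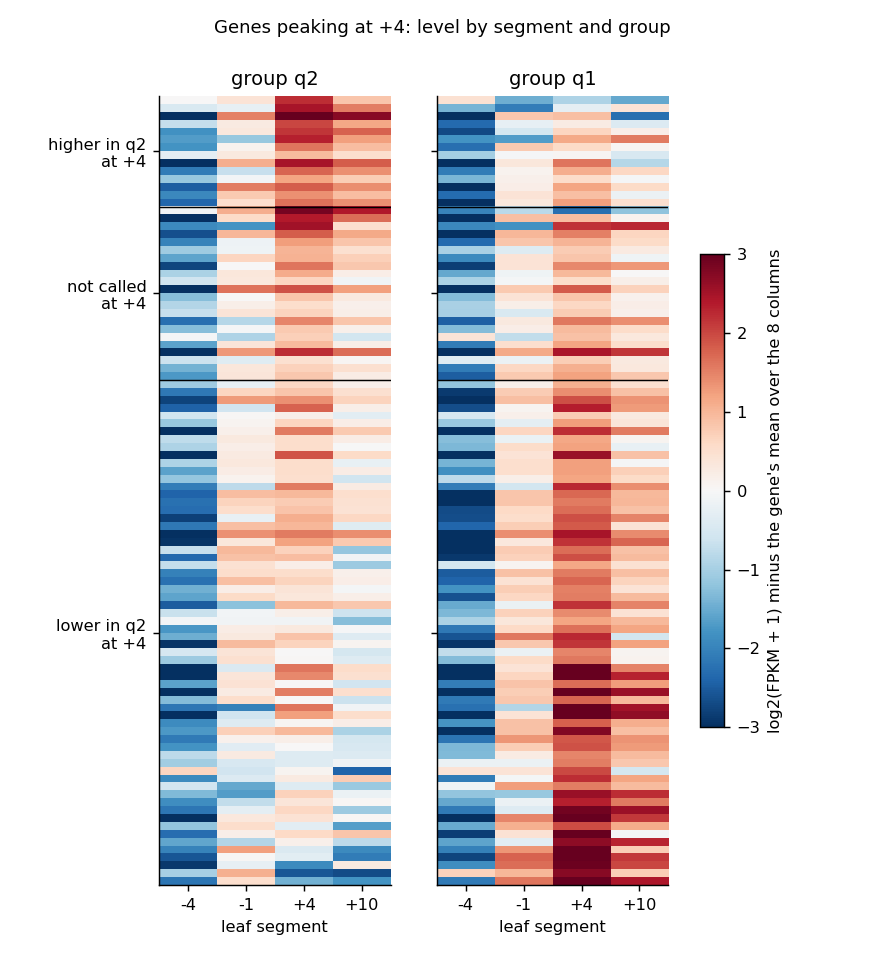
Level of each of the 100 members (rows) in the 4 leaf segments (columns) of group q2 (left) and group q1 (right), as log2(FPKM + 1) minus the gene's mean over the 8 columns. Rows are grouped by the authors' call at +4: the 14 members higher in q2, the 22 not called and the 64 lower in q2, whose dark +4 column in q1 is paler in q2.

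The gradient was flatter in q2 than in q1 for these genes. On log2(FPKM + 1), the median step from -1 to +4 was 0.51 in q2 and 1.06 in q1, and the median step from +4 to +10 was -0.57 in q2 and -0.68 in q1. The highest of the 4 segments was +4 for 77 members in q2 and for 94 in q1. Both groups peaked at +4 in 71 members, q2 alone in 6 and q1 alone in 23. In q2 the top was at -1 for 16 members, at +10 for 5 and at -4 for 2, against 2, 3 and 1 members in q1. No value per library was given, so no spread could be set against these differences. The levels of both groups entered the ranking through their mean, so these steps and counts follow in part from the choice of members. The same counts over all ranked genes are not given, and the differences are a description only.

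Members are described next by their call at +4. The +4 levels fixed that split and also entered the ranking, so where each class peaks follows in part from the choice and is no separate result. The 64 members lower in q2 had medians of 5.09, 21.9, 34.9 and 23.0 FPKM in q2 from base to tip, against 4.35, 34.8, 111 and 44.8 FPKM in q1. Of those 64, 41 kept their highest level at +4 in q2, against all 64 in q1. The 14 members higher in q2 had medians of 4.70, 32.7, 94.0 and 70.0 FPKM in q2, against 1.79, 18.9, 32.1 and 20.7 FPKM in q1. All 14 peaked at +4 in q2, against 10 of the 14 in q1. The 22 members without a call at +4 had medians of 6.51, 17.0, 37.7 and 23.1 FPKM in q2, against 4.84, 13.3, 25.2 and 17.7 FPKM in q1. They had their highest level at +4 in all 22 cases in q2 and in 20 in q1.

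**Figure D2:**
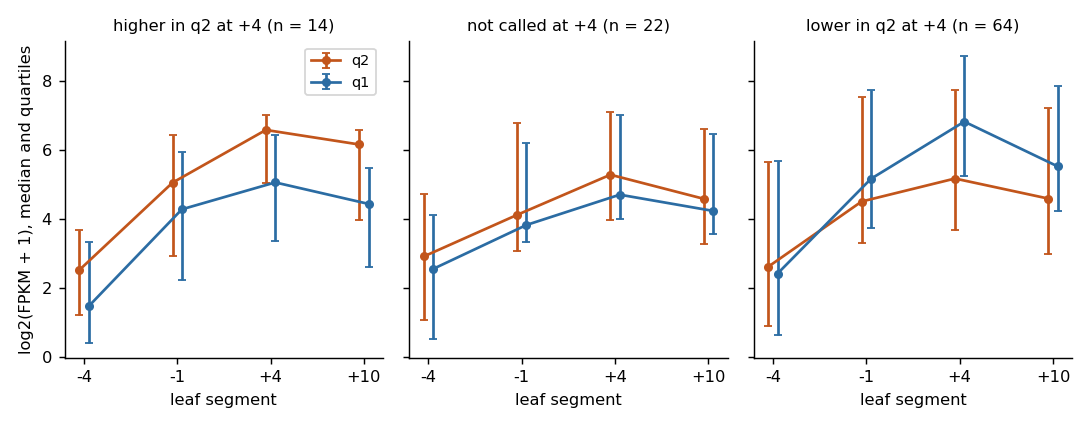
Median level of members over the 4 segments in q2 (orange) and q1 (blue), as log2(FPKM + 1), with bars for the quartiles over members, in panels for the 14 members higher in q2 at +4, the 22 not called and the 64 lower. In the right panel the median curve of q2 flattens after -1 while that of q1 climbs on to +4.

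Between the groups, the members were mostly lower in q2 at +4 and at the tip, mostly not called at -1, and more often higher than lower at the base. At +4 all 100 members were tested. By Cuffdiff's adjusted p under 0.05 in the authors' deposited table, 78 were called in either direction, against 42.2% of all 17969 tested genes. Lower calls numbered 64, against 22.8% of tested genes, and higher calls 14, against 19.5%. The median log2 change was -0.75 at +4, with quartiles of -1.67 and 0.02, while all tested genes had a median of 0.01. The means of both groups in all 4 segments entered the choice of members, so the counts in every segment describe the group, and nothing is read from them.

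That choice moved the balance of the calls. Ranking by the q1 values alone gave 100 genes of which 81 were lower and 5 higher in q2 at +4, and 56 of them were among the 100 members. Ranking by the q2 values alone gave 36 lower and 26 higher, with 44 genes shared. Abundance moved with the calls too. Of the 10 members with at least 1000 FPKM at +4, 9 were lower in q2, against 80.4% of the 92 tested genes of that abundance. Of the 29 members between 100 and 1000 FPKM, 18 were lower, against 37.6% of 898 tested genes, and of the 61 between 10 and 100 FPKM, 37 were lower, against 22% of 6581. The part of abundance in the calls was not tested.

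**Figure D3:**
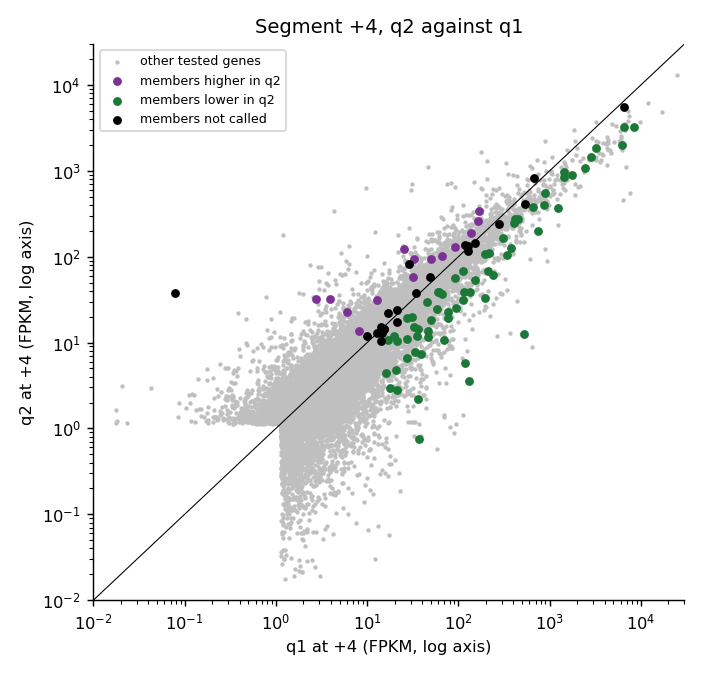
Level at +4 in q2 (vertical) against q1 (horizontal), in FPKM on log axes, for every tested gene with a level above 0 in both groups (grey) and the members, coloured by the authors' call. The 64 lower members lie under the line of equal levels and the 14 higher members above it. 1 black point far to the left is GRMZM2G387360, at 0.0792 FPKM in q1.

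At the tip, 78 of 100 tested members were called, against 43.8% of tested genes. Of the 100, 61 were lower in q2, against 22.3% of tested genes, and 17 were higher, against 21.5%. The median change of members at +10 was -0.57, and that of all tested genes 0.02. Calls at +4 and +10 went the same way in 67 of the 68 members called in both, 55 lower and 12 higher. That is 98.5%, against 98.6% of the 4773 genes called in both over the whole tables, a share near that of the members. The exception was the first-ranked member, GRMZM2G026780. At -1, 98 members were tested and 29 called, against 17.7% of tested genes. Of the 98, 20 were lower, against 8.22% of tested genes, while 9 were higher, against 9.48%. The median at -1 was -0.20, and 0.01 over all tested genes.

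At the base the balance turned. Of 69 members tested at -4, 38 were called, against 27.9% of tested genes. Of the 69, 29 were higher, against 15.2% of tested genes, and 9 were lower, against 12.7%. The median change of the 69 was 0.40, and that of all tested genes 0.02. The other 31 members were not tested there, having too little signal, so the 69 are those with more transcript at the base. Of 31 members called both at -4 and at +4, 19 changed direction, 18 of them higher at -4 and lower at +4 and 1 the reverse. The 19 are 61.3%, against 43.9% of the 2351 genes called at both over the whole tables. The most frequent pattern, held by 15 members, was higher at -4, not called at -1, lower at +4 and lower at +10. All 15 were tested in every segment, as were 69 members, which makes 21.7%, against 2.58% of the 14633 genes so tested. These shares too rest on members chosen by their means. Whether a member's change differed between segments was not tested.

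Changes of at least 2-fold followed the same course. At -4, 11 members were called higher by that much, against 5.21% of tested genes, and 3 lower, against 1.76%. At -1, 4 were higher, against 4.59%, and 14 lower, against 3.86%. At +4, 7 were higher, against 7.25%, and 41 lower, against 13.5%. At the tip, 7 were higher, against 6.9%, and 34 lower, against 10.4%.

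**Figure D4:**
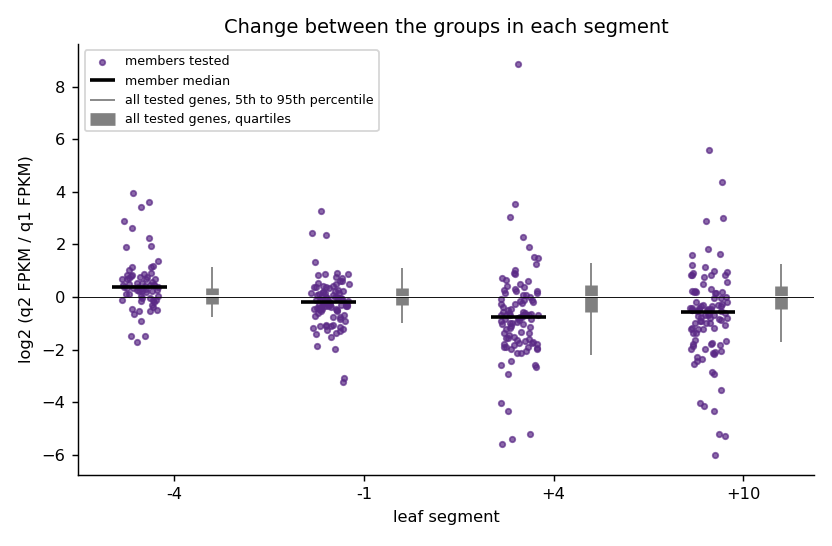
log2 of q2 FPKM over q1 FPKM for the members tested in each segment (points, with the median as a black line) beside all tested genes (thick grey bar for the quartiles with a white gap at the median, thin line for the 5th to 95th percentile). The member median lies at 0.40 at -4, -0.20 at -1, -0.75 at +4 and -0.57 at +10.

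Gene names were available for 18 members, of which 14 were lower in q2 at +4, 1 was higher and 3 were not called. They are described below by role. Values after the sign ± are the standard error of the log2 change that the deposited test statistic implies, and calls and adjusted p-values were taken from the authors' deposited table, as Cuffdiff computed them. The deposited p-values do not follow from this standard error, so a call cannot be read from it. GRMZM2G304372 at +4 (0.74 ± 0.50) was called, while GRMZM5G892308 at +10 (5.58 ± 1.18) was not.

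Named members that act in the chloroplast were, apart from KEA2, lower in q2 at +4. They include the 2 most abundant named members, cp29 and GAPA. The gene cp29 (GRMZM2G033885, at chromosome 7, 157276216 to 157277660 as the authors' tables place it, with no build named) encodes a minor antenna protein of photosystem II. It had 786, 3095, 3234 and 2597 FPKM in q2 at -4, -1, +4 and +10, against 604, 4047, 8329.5 and 6016 FPKM in q1. In q2 the level hardly moved after -1, whereas in q1 it climbed further between -1 and +4. The log2 change was -1.37 ± 0.41 at +4 (adjusted p = 0.000288 in the authors' deposited table, the smallest it can give) and -1.21 ± 0.37 at +10, while 0.38 ± 0.30 at -4 and -0.39 ± 0.34 at -1 did not pass.

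GAPA (GRMZM2G337113), a subunit of the chloroplast glyceraldehyde phosphate dehydrogenase of the Calvin-Benson cycle, had 548, 3267, 3236 and 2498 FPKM in q2 from base to tip, against 396, 4108, 6608 and 4203 FPKM in q1. It rose in q2 by 0.47 ± 0.31 at -4 and fell by 1.03 ± 0.48 at +4 and by 0.75 ± 0.38 at +10, and -0.33 ± 0.34 at -1 did not pass. The direction thus turned between base and mid-leaf. atpc1 (GRMZM5G862663), a subunit of the chloroplast ATP synthase, followed the same course. Its levels were 46.8, 354, 379.8 and 310.0 FPKM in q2, against 26.7, 396, 663 and 445 FPKM in q1, with changes of 0.81 ± 0.26 at -4, -0.16 ± 0.33 at -1 (not called), -0.80 ± 0.30 at +4 and -0.52 ± 0.26 at +10.

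pOMT1 (GRMZM2G383088), which carries oxaloacetate and malate across the chloroplast envelope, encodes, like pDCT2, a dicarboxylate transporter. It had 111, 353, 400.4 and 293 FPKM in q2, against 87.6, 512, 877 and 407 FPKM in q1. Both groups peaked at +4, and the step from -1 to +4 was larger in q1. The change of pOMT1 was lower in q2 at -1, +4 and +10, by -0.54 ± 0.33, -1.13 ± 0.31 and -0.48 ± 0.27, and 0.35 ± 0.25 at -4 was not called (adjusted p = 0.0532 in the authors' deposited table).

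fad7 (GRMZM2G128971), named for a plastid desaturase that makes the trienoic fatty acids of thylakoid lipids, had 56.3, 154, 199.7 and 141 FPKM in q2, against 77.4, 331, 743 and 475 FPKM in q1. It was lower in q2 in all 4 segments, by -0.46 ± 0.26, -1.10 ± 0.36, -1.89 ± 0.31 and -1.75 ± 0.28 from base to tip. KEA2 (GRMZM2G093643), named for an antiporter of potassium and protons that in Arabidopsis sits in the chloroplast envelope, differed from these genes. It had 12.9, 25.8, 58.0 and 40.1 FPKM in q2, against 14.0, 21.5, 48.8 and 34.5 FPKM in q1, and no segment gave a call. The log2 change of KEA2 at +4 was 0.25 ± 0.29 (adjusted p = 0.22 in the authors' deposited table).

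**Figure D5:**
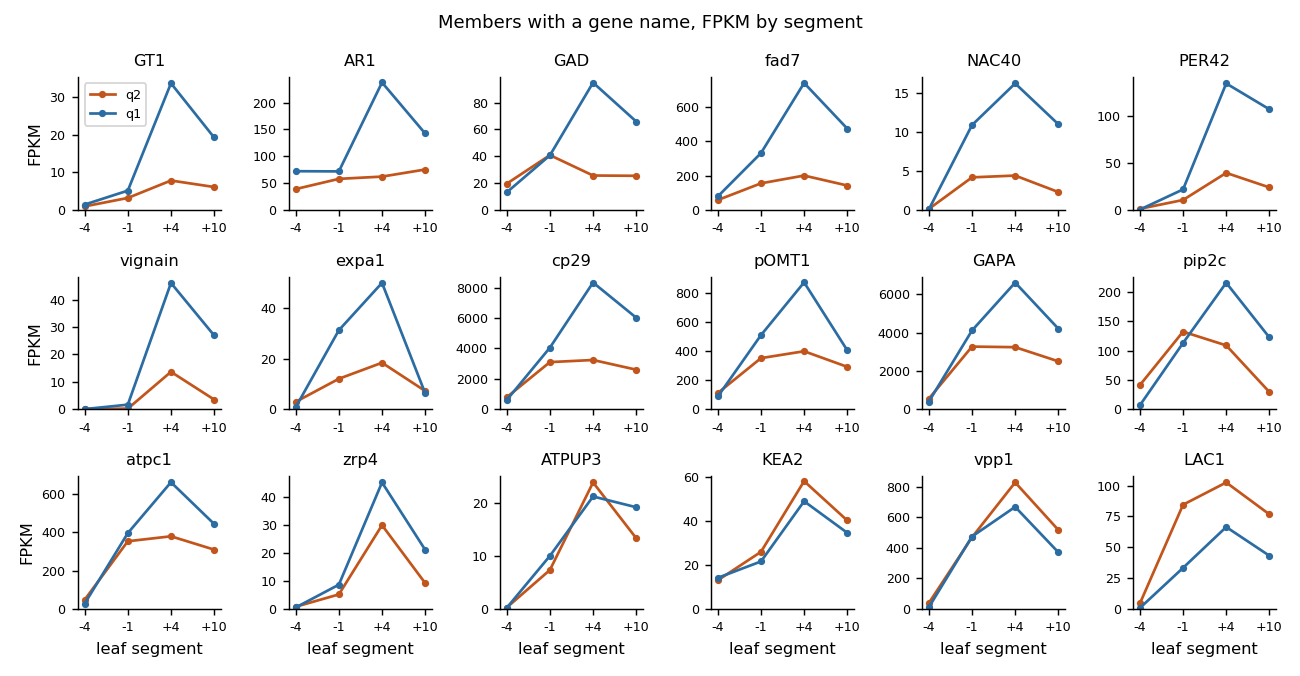
FPKM of the 18 members with a gene name over the 4 leaf segments in q2 (orange) and q1 (blue), each panel with its own linear axis from 0, ordered from the lowest to the highest log2 change at +4. GT1 opens the series at -2.12, and LAC1, at 0.63, is the only one called higher in q2 at +4.

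Members tied to cell walls split in direction. LAC1 (GRMZM5G842071) encodes a laccase, a class of enzymes that polymerise lignin, and had 4.28, 84.5, 103 and 76.7 FPKM in q2, against 0.575, 33.2, 66.4 and 43.1 FPKM in q1. It was higher in q2 in all 4 segments, by 2.90 ± 0.72, 1.35 ± 0.34, 0.63 ± 0.30 and 0.83 ± 0.26. PER42 (GRMZM2G126261), a peroxidase gene, had 0.893, 10.3, 39.1 and 23.7 FPKM in q2, against 0.0439, 21.5, 134 and 107 FPKM in q1. It was lower in q2 at -1, +4 and +10, by -1.07 ± 0.42, -1.78 ± 0.30 and -2.17 ± 0.28, and was not tested at -4. The expansin gene expa1 (GRMZM2G339122), whose product loosens walls, had 2.90, 12.0, 18.4 and 7.21 FPKM in q2, against 0.774, 31.3, 50.0 and 6.32 FPKM in q1. Its change was positive at the base (1.91 ± 0.71), negative at -1 (-1.38 ± 0.36) and +4 (-1.44 ± 0.32), and not called at the tip (0.19 ± 0.39).

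For water and ion transport across membranes, the aquaporin gene pip2c (GRMZM2G081192) had 41.1, 132, 109 and 29.3 FPKM in q2, against 6.69, 113, 216 and 123 FPKM in q1. The q2 series peaked at -1 and the q1 series at +4. The log2 change of pip2c was 2.62 ± 0.31 at -4, 0.23 ± 0.33 at -1 (not called), -0.99 ± 0.29 at +4 and -2.06 ± 0.26 at +10. vpp1 (GRMZM2G069095), which encodes a proton-pumping pyrophosphatase of the vacuole, had 37.1, 467, 827 and 516 FPKM in q2, against 9.65, 473, 666 and 369 FPKM in q1. It was called higher in q2 at -4 (1.94 ± 0.26) and +10 (0.48 ± 0.30), while 0.31 ± 0.35 at +4 did not pass (adjusted p = 0.205 in the authors' deposited table). ATPUP3 (GRMZM2G009344), named after a purine permease of Arabidopsis, had 24.0 FPKM in q2 and 21.3 FPKM in q1 at +4 (0.17 ± 0.34, not called), and fell at the tip, by 0.53 ± 0.32.

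The other 6 named members include enzymes of metabolism, a protease and a transcription factor, and all 6 were lower in q2 at +4. GAD (GRMZM2G017110), glutamate decarboxylase, which makes gamma-aminobutyrate, had 19.4, 40.7, 25.5 and 25.3 FPKM in q2, against 12.9, 40.6, 94.9 and 65.9 FPKM in q1. The groups were alike in level at -1 and apart afterwards, with changes of 0.59 ± 0.27, 0.01 ± 0.36 (not called), -1.90 ± 0.30 and -1.38 ± 0.27 from base to tip. The cysteine protease gene vignain (GRMZM2G070011) had 0.0801, 0.194, 13.6 and 3.51 FPKM in q2, against 0.0248, 1.64, 46.1 and 26.9 FPKM in q1. It stayed under 2 FPKM up to -1 in either group, and its changes were -1.76 ± 0.34 at +4 and -2.94 ± 0.42 at +10. NAC40 (GRMZM5G898290), a NAC transcription factor gene, had 4.15, 4.38 and 2.27 FPKM in q2 at -1, +4 and +10, against 10.9, 16.2 and 11.0 FPKM in q1. It fell by 1.39 ± 0.47, 1.89 ± 0.43 and 2.28 ± 0.50 in those segments and was not tested at -4.

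zrp4 (GRMZM2G017557), a gene for an O-methyltransferase, kept a clear mid-leaf peak in both groups, with 0.695, 5.10, 29.8 and 9.15 FPKM in q2, against 0.433, 8.58, 45.1 and 21.0 FPKM in q1. Its score from q2 alone, 1.60, was above that from q1 alone, 1.06. The changes of zrp4 were -0.75 ± 0.46 at -1, -0.60 ± 0.31 at +4 and -1.20 ± 0.33 at +10, all called. AR1 (GRMZM2G479423) had 38.5, 57.6, 61.8 and 75.1 FPKM in q2, against 71.9, 71.5, 238 and 142 FPKM in q1, so that q2 climbed slowly to the tip and q1 peaked at +4. AR1 was called lower at -4, +4 and +10, by -0.90 ± 0.25, -1.94 ± 0.29 and -0.92 ± 0.25. GT1 (GRMZM2G421491), whose deposited locus another gene shares, had 7.75 FPKM in q2 and 33.7 FPKM in q1 at +4, the largest change among the named members (-2.12 ± 0.36).

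The strongest peaks belonged mostly to genes without a name in the reference table. GRMZM2G026780 (chromosome 1, 270831293 to 270832294) led the ranking, with 0.608, 7.86, 10.8 and 12.9 FPKM in q2, against 0.111, 9.68, 68.7 and 6.66 FPKM in q1. The peak at +4 was thus a feature of q1, and q2 climbed to the tip. GRMZM2G026780 was lower in q2 at +4 (-2.66 ± 0.38) and higher at +10 (0.96 ± 0.41, adjusted p = 0.0007 in the authors' deposited table). GRMZM2G113761, ranked 2, had 0.429, 7.76, 5.83 and 0.973 FPKM in q2, against 0.269, 28.2, 118 and 36.1 FPKM in q1. Its change was -1.86 ± 0.40 at -1, -4.34 ± 0.38 at +4 and -5.21 ± 0.78 at +10, where the level in q2 was near the floor. Whether the change differed between +4 and +10 was not tested.

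Several other leading members peaked at +4 in both groups. GRMZM2G094990, ranked 3, had 17.5, 56.4 and 22.1 FPKM in q2 at -1, +4 and +10, against 19.6, 91.0 and 27.3 FPKM in q1, and was called at +4 alone (-0.69 ± 0.29). GRMZM2G001508, ranked 4, had 38.4 FPKM in q2 and 116 FPKM in q1 at +4 (-1.59 ± 0.32). GRMZM2G082520, ranked 5, had 31.3 FPKM in q2 and 111 FPKM in q1 at +4 (-1.83 ± 0.31), but at the base it stood at 3.97 FPKM in q2 and 0.372 FPKM in q1 (3.42 ± 1.08, called higher). GRMZM2G041068, ranked 9, had 11.8 FPKM in q2 and 19.7 FPKM in q1 at +4 (-0.74 ± 0.36). GRMZM2G083504, ranked 12, was the one gene among the first 15 without a call at +4, with 38.1 FPKM in q2 and 34.6 FPKM in q1 (0.14 ± 0.31, adjusted p = 0.547 in the authors' deposited table). GRMZM2G389567, ranked 13, had 11.6 FPKM in q2 and 46.2 FPKM in q1 at +4 (-1.99 ± 0.41), and in q2 its highest level was at the base, 17.6 FPKM.

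Apart from GRMZM2G137329, with 32.9 FPKM in q2, the 10 largest falls at +4 brought genes of moderate or high level in q1 to 12.5 FPKM or less in q2. GRMZM2G050307 had 5.76, 0.759 and 0.382 FPKM in q2 at -1, +4 and +10, against 13.6, 36.6 and 24.7 FPKM in q1. Its change at +4 was -5.59 ± 0.72, or -4.42 with 1 FPKM added to both groups. GRMZM2G170400 had 38.8, 165, 12.5 and 11.4 FPKM in q2, against 128, 156, 525 and 132 FPKM in q1. The groups were close at -1 (0.08 ± 0.46, not called) and 42.0-fold apart at +4 (-5.39 ± 0.63). GRMZM2G115839 had 1.32, 13.6, 3.56 and 19.8 FPKM in q2, against 3.74, 53.7, 132 and 67.6 FPKM in q1. In q2 it dipped at +4 (-5.21 ± 0.46), the segment where q1 was highest, and it was lower in q2 in all 4 segments.

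GRMZM2G122853 had a change of -4.03 ± 0.46 at +4, or -3.53 with 1 FPKM added, with 2.23 FPKM in q2 and 36.4 FPKM in q1, after near-equal levels at -1 (9.23 FPKM in q2 and 9.89 FPKM in q1). The 10 largest falls also held GRMZM2G113761 and GRMZM2G026780, given above, as well as GRMZM2G079807 (-2.92 ± 0.48), GRMZM2G385428 (-2.59 ± 0.42), GRMZM2G137329 (-2.57 ± 0.33) and GRMZM2G059502 (-2.42 ± 0.43). The last 4 were called lower at +10 as well. GRMZM2G137329 was the most abundant of the 4, with 29.9, 32.9 and 24.7 FPKM in q2 at -1, +4 and +10, against 67.6, 196 and 107 FPKM in q1.

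The 2 largest called rises at +4 were in genes that were low in q1 there. GRMZM2G018820, ranked 7, had 6.12, 8.45, 32.0 and 11.5 FPKM in q2, against 8.70, 1.54, 2.72 and 1.42 FPKM in q1. In q1 this gene was highest at the base, so its place among the members came from q2. The change was -0.51 ± 0.35 at -4 and 2.45 ± 0.63, 3.55 ± 0.47 and 3.02 ± 0.62 at -1, +4 and +10, all 4 called. GRMZM2G127134 had 3.36, 4.08, 32.4 and 16.5 FPKM in q2, against 1.29, 0.418, 3.96 and 7.02 FPKM in q1, and with LAC1 was one of the 2 members higher in q2 in all 4 segments. It rose by 3.03 ± 0.40 at +4.

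GRMZM5G892308 had 39.5, 123 and 94.0 FPKM in q2 at -1, +4 and +10, against 23.9, 25.5 and 1.97 FPKM in q1. It rose by 2.27 ± 0.49 at +4, and 5.58 ± 1.18 at +10 did not pass (adjusted p = 0.0593 in the authors' deposited table). GRMZM2G017319, ranked 14, rose by 1.90 ± 0.39 at +4, GRMZM5G860607 by 1.54 ± 0.45 and GRMZM2G020859 by 1.25 ± 0.30. GRMZM2G018579 (1.03 ± 0.29), GRMZM2G149265 (0.90 ± 0.29), GRMZM2G337706 (0.88 ± 0.32) and GRMZM2G304372 (0.74 ± 0.50) completed the 10. GRMZM2G018579 stood out in abundance, with 342 FPKM in q2 and 168 FPKM in q1 at +4, and was lower in q2 at -1 (-0.68 ± 0.33). GRMZM2G387360, chosen after its values were seen, had 37.3 FPKM in q2 and 0.0792 FPKM in q1 at +4, yet its change of 8.88 ± 3.40 was not called (adjusted p = 0.244 in the authors' deposited table). The same gene was called higher in the other 3 segments, by 3.61 ± 1.63 at -4, 2.35 ± 0.73 at -1 and 4.39 ± 1.00 at +10.

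A small set of members had low levels up to -1 and higher levels at +4. The mean level at -1 was under 2 FPKM for 6 members, a limit chosen after the values were seen: vignain, GRMZM2G041068, GRMZM2G064657, GRMZM2G079807, GRMZM2G148930 and GRMZM2G020859. GRMZM2G064657 had 0.0541, 0.141, 21.9 and 4.62 FPKM in q2, against 0.0498, 0.137, 16.8 and 18.2 FPKM in q1. It switched on between -1 and +4 in both groups. At +4 the groups were not called apart (0.38 ± 0.30), and at +10 it was lower in q2 (-1.98 ± 0.33). GRMZM2G148930 had 0.135, 4.83 and 2.20 FPKM in q2 at -1, +4 and +10, against 0.635, 20.9 and 15.8 FPKM in q1. GRMZM2G020859 had 1.86, 30.9 and 13.8 FPKM in q2 at those segments, against 0.978, 13.0 and 17.7 FPKM in q1, which put its top at +4 in q2 and at the tip in q1.

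At the other end of abundance, GRMZM2G121878, chosen after its values were seen as the member of at least 1000 FPKM without a call at +4, had 38.8, 2965, 5535 and 3854 FPKM in q2, against 17.5, 2636, 6572 and 5261 FPKM in q1. Its change was 1.15 ± 0.54 at -4, called higher, and -0.25 ± 0.53 at +4 (adjusted p = 0.526 in the authors' deposited table). In all, 6 members were called in no segment, of which 5 were tested in every segment and 1 was not tested at -4. No share over all genes is given beside this count, so nothing is read from it.

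Members were spread over all 10 chromosomes. Chromosome 1 held 18 of them, against 16.8% of ranked genes, and chromosome 10 held 11, against 6.19%. Pairs of members within 100 kb of each other numbered 4. GRMZM2G142383 and GRMZM2G020429, ranked 23 and 24, lie 149 bases apart on chromosome 1 (193601189 to 193604308 and 193604457 to 193608053). At +4 they had 10.7 and 19.9 FPKM in q2, against 17.1 and 30.9 FPKM in q1, with changes of -0.67 ± 0.45 and -0.64 ± 0.33, both called lower. GRMZM2G044132 and GRMZM5G806182, ranked 15 and 22, have the same deposited locus on chromosome 2, 53844492 to 53846005. Their levels at +4, 68.2 and 104 FPKM in q2, against 209.6 and 340.1 FPKM in q1, are uncertain because reads of overlapping genes can be split between them.

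The other pairs were looser. GRMZM2G181546 and GRMZM2G151977, 42.9 kb apart on chromosome 10, were both lower at +4, by -0.58 ± 0.29 and -0.60 ± 0.29. GRMZM2G115839 and GRMZM2G131575, 61.8 kb apart on chromosome 1, differed, since GRMZM2G131575 was not called at +4 (0.22 ± 0.29). A deposited locus shared with another gene was held by 7 members, and for these the same uncertainty applies. Among them, GRMZM2G370175 (1.50 ± 1.59 at +4) and GRMZM2G101617 (0.00 ± 1.48) had standard errors above 1 on the log2 scale.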

How the data were processed

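The submitters' processing notes name GSNAP, an aligner, and Cuffdiff, which tests group differences. No source used here gives their versions, the genome build or the annotation. Per the file headers, each deposited table gives a level (FPKM in Cuffdiff's layout, although the header does not name the unit), pooled by the authors over the replicates of a group, with a test statistic (a score computed by the authors), a p-value and an adjusted p-value. A call is an adjusted p under 0.05 in a gene with status OK. The smallest adjusted p a table can give is 0.000492, 0.000777, 0.000288 and 0.000259 at -4, -1, +4 and +10.

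Log2 changes were recomputed from the levels, and the standard error was taken as the size of the change over the deposited statistic. No value per library was used, so no SD is given, and the p-values reflect how the authors' tool judged the variation among the 3 libraries of a group, which the labels call biological replicates. Genes with status HIDATA (2) or FAIL (1) in any table were left out. The 2 HIDATA genes were the mesophyll genes pep1 (GRMZM2G083841) and pdk1 (GRMZM2G306345). Neither could be ranked, whatever its gradient, and neither entered the FPKM sums. The ranking was tested on simulated data with seeded peaks of at least 2-fold. Only 9 members had a peak of that size, so the test does not cover the shallower peaks of the others. Python 3.11.15 and pandas 2.3.3 were used.

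Members and lists were chosen with earlier results of these data known. Names came from a RefSeq table, which holds 79 of the 100 members and gives 18 a name. Genes named are the first 15, every named member, the 10 largest called rises and falls at +4, and 3 genes on each side of the limit. Coordinates are as deposited. Promoter motifs were planned but not searched, as no sequence was used here.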

Additional observations from a re-analysis of the deposited data

How the results depend on the processing

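The choice of members depended on which group was used and on the minimum level. Of the 100 members, 64 were kept with a minimum of 30 FPKM at +4, 56 with q1 alone and 44 with q2 alone, and from 81 to 99 under the other alternatives (pseudocounts of 0.1 and 5 FPKM, a minimum of 5 FPKM, a geometric mean, equal FPKM sums and equal median ratios). Members lower in q2 at +4 fell to 36 with q2 alone, and members higher were 5 with q1 alone and 26 with q2 alone. With at least a 2-fold change, members higher in q2 numbered 11, 4, 7 and 7 at -4, -1, +4 and +10, and members lower numbered 3, 41 and 34 at -4, +4 and +10. At an adjusted p under 0.01, 4 members were lower at -4. Among the members tested in all 4 segments, an alternative chosen after seeing the data, 11 were lower at -1 and 40 at +10, because fewer members enter. Counting 1 member per group of neighbours, also chosen after seeing the data, gave 61 members lower at +4 and 59 at +10. The member medians kept their sign with 1 FPKM added and when centred on all tested genes. No paired analysis was possible because the tables hold 1 pooled value per group, and for the same reason no replicate could be left out. Unknown depth allows no counting interval.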

Other observations

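Other genes of the roles met among the members were counted by symbol, from lists chosen with earlier results known. Of 12 ranked light-harvesting and thylakoid genes, 8 had their highest mean at +4, but only cp29 was steep enough to be a member. Of 13 such genes tested at +4, 11 were lower in q2 and 0 higher (median log2 change -1.35), while at -4, of 12 tested, 8 were higher and 1 lower (median 0.57). Of 28 tested cell wall genes, a list that holds expansins and cellulose synthases, 20 were lower and 3 higher at +4 (median -1.94), and of 17 ranked ones 13 peaked at -1 and 1, expa1, at +4. Lignin and phenylpropanoid genes were lower in 6 of 9 tested cases at +4 and higher in 1, the member LAC1 (median -1.25), whereas at -1, 5 of 13 were higher and 0 lower (median 0.29). Aquaporin genes were higher in 11 of 17 cases and lower in 0 at -4 (median 0.88), and lower in 7 of 23 and higher in 3 at +4 (median -0.53). Of 17 tested genes of the C4 list, which holds pOMT1, 7 were lower and 1 higher at +4 (median -0.41). Of 164 tested transcription factor genes, 57 were lower and 22 higher (median -0.18), and of 65 ranked ones 36 peaked at the tip and 5 at +4. Beside these counts, 22.8% of all tested genes were lower and 19.5% higher at +4, 15.2% were higher and 12.7% lower at -4, and 9.48% were higher and 8.22% lower at -1. The share of aquaporin genes lower at +4 lies near that background. All tested genes had a median of 0.01 at +4 and 0.02 at -4.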
